A study of Mus musculus with 31 samples.

Results

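Skin of cpdm mutant mice was compared between 2 and 4 weeks of age, the first interval of a series that follows the mutant as its skin matures and its dermatitis develops. The members are the 6 arrays titled for cpdm skin at these ages, 3 per age, out of 31 arrays in all. The mutants were female C57BL/KaLawRij-Sharpincpdm/Sharpincpdm RijSunJ mice, homozygous for the chronic proliferative dermatitis allele of Sharpin. Female C57BL/6J wild type mice of the same ages, 3 arrays per age, gave the change of normal skin. No further allele or agent is labelled in any of these 4 groups. The mutant and wild type groups differ in substrain as well as in Sharpin, so the effects of the allele and of the substrain cannot be told apart. Within the mutant, age is the labelled difference between the groups. Each array is labelled as a separate sample, but the labels do not describe a body site. The p-values measure the spread between samples within a group, pooled over all 31 arrays in 10 groups of genotype and age unless another fit is named.

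Sharpin is a subunit of the linear ubiquitin chain assembly complex, LUBAC, together with the catalytic subunit HOIP (gene Rnf31) and HOIL-1 (gene Rbck1). LUBAC attaches linear ubiquitin chains to proteins of the TNF and interleukin 1 receptor pathways, which promotes NF-kB signalling and restrains cell death. Loss of Sharpin gives mice an inflamed, thickened and scaling skin with many eosinophils. Young mouse skin also changes without disease in this period, because the first growth phase of the hair follicle ends and the follicles regress and rest.

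The signals are log2 values from whole skin, one probe set per gene, for 19938 genes. In bulk skin, fewer cells of a type and less RNA per cell cannot be told apart. Arrays of a group correlated at 0.9885 to 0.996 over all genes, and cpdm arrays of 2 and 4 weeks at 0.9388 to 0.9531. The second cpdm array of 2 weeks stood somewhat apart, with the higher macrophage marker levels and the lower pigment gene levels of its group. The first wild type array of 4 weeks had the lowest macrophage levels of its group. Their values are given with the genes they touch. Sharpin itself was measured at 7.26, 7.4 and 7.43 in cpdm skin at 2 weeks and at 7.5, 7.22 and 7.20 at 4 weeks, overlapping ranges. Wild type skin had 7.89, 7.92 and 7.90 at 2 weeks and 8.13, 8.14 and 8.08 at 4 weeks. All 6 mutant values lay below all 6 wild type values, in the direction of the labels, while the mutant transcript still gave signal.

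Between 2 and 4 weeks the mutant skin lost the transcripts of growing hair and of pigment cells, and gained those of fibroblasts, fat, muscle, macrophages and antigen presentation. The largest falls were those of inner root sheath and hair shaft genes, with Krtap15 119-fold and Krt26 115-fold lower. The largest rises included Cyp2e1, Gsdmc, Ifi205 and Ccl8. In limma's fit over all 31 arrays, 6625 genes were called (33.2%): 3340 were higher at 4 weeks at an adjusted p below 0.05 (16.8% of the genes tested) and 3285 were lower (16.5%). The arrays of the 2 ages did not overlap for 47.5% of genes, 23.9% with the 4-week arrays higher and 23.6% lower. Of the called genes, 1071 were at least 2-fold higher (5.37% of the genes tested) and 456 at least 2-fold lower (2.29%). With each array centred on its median the counts were 2804 and 4761, so that 37.1% of calls were higher in place of 50.4%. That centring moved the median change of all genes from -0.02 to -0.10. In wild type skin 9138 genes were called over the same interval (45.8%), 21.3% higher and 24.5% lower. Counts for the gene lists below are read against these shares and, in cpdm skin, against 16.8% higher and 16.5% lower. No array is shared between the mutant and the wild type comparison. Of the 3340 genes higher in cpdm skin, 2706 (81% of the cpdm list, 63.8% of the wild type list) were also higher in wild type skin, and of the 3285 lower genes 2570 (78.2% and 52.5%) were also lower. Across genes the changes of the 2 genotypes had a Pearson r of 0.9065, a description over genes that are not independent replicates. The change itself differed between the genotypes at an adjusted p below 0.05 for 46 genes (0.231%), of which 37 were more positive in cpdm skin (0.186%) and 9 more negative. At an unadjusted p below 0.05 the difference passed for 2633 genes (13.2%).

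**Figure D1:**
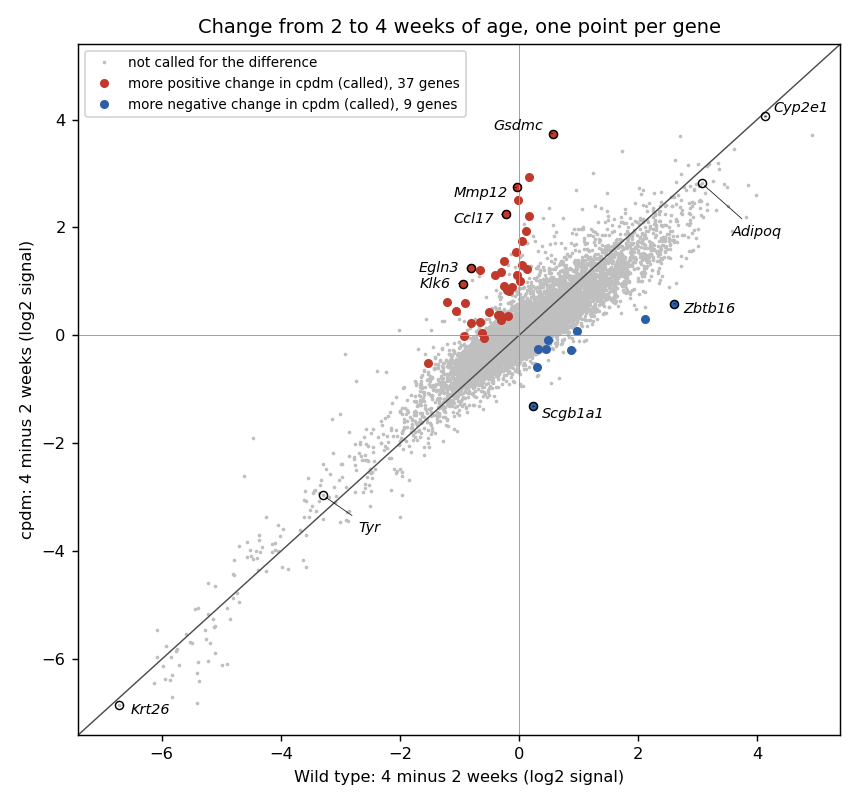
Change in log2 signal from 2 to 4 weeks in wild type skin (horizontal axis) and cpdm skin (vertical axis), one point per gene over 19938 genes, with the line of equal change. Most genes lie along the line, from Krt26 at the lower left to Cyp2e1 at the upper right, while 37 genes above it and 9 below it had a called difference between the changes.

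All 27 measured genes of the hair keratin list fell in cpdm skin, against a background of 16.5% of genes lower. Their median change was -5.26 on the log2 scale, and it was -5.11 in wild type skin, where all 27 also fell. The list's changes ran from -6.84 to -2.81 in the mutant. Krt26, a type I keratin of the inner root sheath that moulds the growing hair, was at 11.28, 11.57 and 11.55 at 2 weeks and at 4.36, 4.55 and 4.97 at 4 weeks. The groups did not overlap, and Krt26 was 115-fold lower (log2 change -6.84, SE 1.22, limma adjusted p = 0.00017). Krt28 went from 11.92, 12.11 and 12.17 to 5.18, 5.58 and 4.99, a 113-fold fall. Krt25 went from 12.59, 12.60 and 12.69 to 5.39, 6.78 and 6.50, an 84.6-fold fall. Krt71, a type II keratin of the sheath, fell by 6.11 on the log2 scale, and Tchh, trichohyalin, the protein that hardens the sheath, fell by 5.89. Krtap15 and Krtap11-1, which encode matrix proteins between the keratin filaments of the hair shaft, fell by 6.90 and 6.69. Keratin-associated proteins form families of near-identical genes, and probe sets may share signal between them. The difference of change between genotypes was called for 0 of the 27 genes in the fit over all arrays. In the limma fit to the 12 arrays of 2 and 4 weeks, the hair keratins Krt34 (0.70, adjusted p = 0.041) and Krt32 (-0.53, adjusted p = 0.038) had called differences. Both were named after their values were seen. The standard error of Krt26 draws on the spread at all ages, which was wide at 8 weeks in wild type skin (SD 3.91, n = 3).

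The letters TATAAA, those of the TATA box that positions the start of transcription, were searched on both strands in the 250 bases before the annotated start of each gene in RefSeq (GRCm38.p6). They were present for 21 of the 24 hair keratin list genes with a window (87.5%) and for 12.5% of 15614 measured genes with a window. The window of Krt26 (chr11:99337966-99338215, minus strand) is shown because its gene gave the largest fall of the list, with the 2 matches in capitals, starting 158 and 30 bases before the gene start.
Krt26: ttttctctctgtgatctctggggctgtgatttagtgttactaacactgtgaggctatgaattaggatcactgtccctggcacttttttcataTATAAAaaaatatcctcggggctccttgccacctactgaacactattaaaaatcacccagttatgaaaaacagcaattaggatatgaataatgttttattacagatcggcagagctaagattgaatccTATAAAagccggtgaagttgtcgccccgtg
A match is a description of these letters and not a measured site.

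Regulators of the follicle were called in both directions. Of 36 genes on the follicle growth and Wnt list, 17 were lower and 10 higher in cpdm skin, with a median of -0.60. In wild type skin 16 were lower and 11 higher, with a median of -0.225. Foxn1, a transcription factor of hair keratin differentiation, fell from 8.56, 8.71 and 8.83 to 6.42, 6.33 and 6.40 (log2 change -2.32, SE 0.38, adjusted p = 8.5e-05). Cd34, which marks the bulge stem cells of the resting follicle and also dermal and vessel cells, rose from 9.02, 9.26 and 8.77 to 10.60, 10.83 and 10.71, a 3.24-fold rise. Nfatc1, a factor that keeps bulge stem cells quiescent, rose 2.05-fold. The ages did not overlap for any of these 3 genes. Bmp6, a signal of the resting follicle, fell by 0.78.

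Pigment cell genes fell with the hair genes: 13 of 15 were lower and 1 was higher, with a median of -1.34 in cpdm and -1.96 in wild type skin. Tyr, the first enzyme of melanin synthesis, was at 7.89, 6.12 and 7.17 at 2 weeks and at 3.82, 4.23 and 4.24 at 4 weeks. The second 2-week array was the lowest of its group, and still above every 4-week array (7.8-fold lower at 4 weeks, log2 change -2.96, SE 0.64, adjusted p = 0.00093). Mlana, a melanosome protein, fell from 8.94, 7.69 and 8.49 to 5.87, 6.32 and 5.81. Rab27a, a melanosome transport protein that many other cells also use, was the 1 that rose, by 0.78 on the log2 scale.

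Matrix genes of the dermis rose together. Of 32 collagen and matrix genes, 25 were higher and 0 lower (background 16.8% higher), with a median of 1.11 against 1.34 in wild type skin. Dcn, decorin, a proteoglycan that binds collagen fibrils, rose from 10.82, 11.10 and 10.51 to 12.44, 12.51 and 12.46 (log2 change 1.66, SE 0.19, adjusted p = 2.6e-06). Col6a1, a chain of collagen VI, rose 3.40-fold and Bgn, the related proteoglycan biglycan, rose 2.35-fold, both without overlap between ages. The wild type changes of these genes were 1.69 for Dcn, 1.72 for Col6a1 and 1.21 for Bgn.

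Genes of fat, sebaceous gland and muscle were also higher. Of 21 adipocyte genes 15 rose and 0 fell, with a median of 1.2 in both genotypes. Adipoq, the fat cell hormone adiponectin, rose from 6.13, 6.54 and 5.18 to 9.02, 8.82 and 8.47, which is 7.06-fold with no overlap (adjusted p = 8.2e-06). Thrsp, a regulator of fat synthesis, rose 5.35-fold. Of 18 sebaceous gland genes 12 rose and 1 fell in cpdm skin, and 12 rose and 2 fell in wild type skin. Dgat2l6, an enzyme of skin surface lipid synthesis, rose 4.31-fold in cpdm skin. Of 25 skeletal muscle genes 21 rose and 1 fell in each genotype. Pvalb, the calcium buffer of fast muscle fibres, rose from 8.81, 9.14 and 8.71 to 11.54, 11.42 and 11.24, or 5.71-fold. The median of the muscle list was 1.57 in cpdm and 2.26 in wild type skin. A smaller rise in the mutant was called for 0 of the 25 muscle genes in the fit over all arrays and for 10 in a fit to the 12 arrays of these ages. The amount of muscle under the sampled skin was not tested.

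Of the imprinted and fetal growth genes, 3 of 17 were higher and 3 lower in cpdm skin, shares near those of all genes (16.8% and 16.5%), and 7 were higher and 7 lower in wild type skin. Igf2bp3, a fetal RNA-binding protein, had one of the smallest p-values: it fell from 7.71, 7.5 and 7.73 to 6.23, 6.15 and 6.14 (log2 change -1.47, SE 0.11, adjusted p = 4.8e-09). Plag1, a transcription factor of fetal growth, fell by 1.29. Grb10 and Ndn, imprinted genes that limit growth, rose 2.25-fold and 2.09-fold. Igf2, the fetal growth factor, was at 7.89, 7.59 and 7.47 and then 6.99, 7.48 and 7.19, overlapping, with an adjusted p of 0.089.

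**Figure D2:**
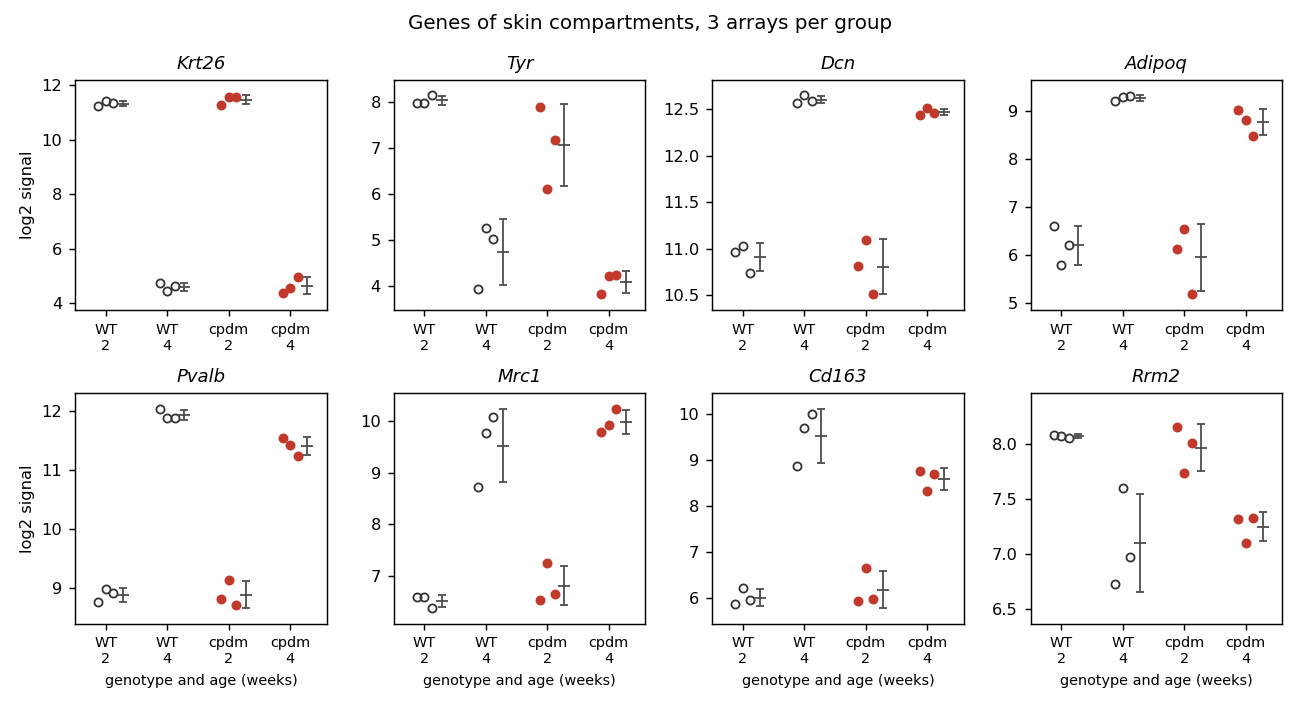
Log2 signal of 8 genes of hair, pigment, dermis, fat, muscle, macrophages and dividing cells in wild type (open) and cpdm (filled) skin at 2 and 4 weeks, with 3 arrays per group and bars for the mean and SD. Krt26 and Tyr fell and Dcn, Adipoq, Pvalb, Mrc1 and Cd163 rose in both genotypes without overlap of the ages.

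Few cell cycle genes passed the test in the mutant. In cpdm skin 2 of 29 genes fell, below the 16.5% of all genes, and 0 rose, with a median of -0.44. In wild type skin all 29 fell, against 24.5% of all genes, with a median of -0.97. The count of 2 depended on the arrays that set the spread: it was 7 in the fit to the 12 arrays of 2 and 4 weeks, 19 in the fit to the 6 cpdm arrays and 18 with array weights. The mean log2 signal of the list was 7.94, 7.47 and 7.87 in cpdm skin at 2 weeks and 7.22, 7.38 and 7.39 at 4 weeks. It was 7.93, 7.94 and 7.97 and then 6.46, 7.46 and 6.94 in wild type skin, with the first 4-week array lowest, so the genotypes overlapped at 4 weeks. Rrm2, a subunit of ribonucleotide reductase, fell in cpdm skin from 8.16, 7.74 and 8.01 to 7.32, 7.10 and 7.33 (log2 change -0.72, SE 0.21, adjusted p = 0.0085). Aurka, a mitotic kinase, went from 7.52, 7.14 and 7.4 to 6.78, 6.77 and 6.87. Its call was lost without the first or the third 2-week array or the second 4-week array, with changes of -0.46, -0.52 and -0.53 and adjusted p-values of 0.083, 0.054 and 0.051. Aurkb, its relative, had 8.23, 7.5 and 8.06 at 2 weeks against 7.22, 7.49 and 7.4 at 4 weeks, a change of -0.56 with an adjusted p of 0.058. Without the second 2-week array, the lowest of its group, the change was -0.78 and was called. A difference of change between genotypes was called for 0 of the 29 genes, also in the fit to 12 arrays and in the fit with array weights.

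In the epidermis, more late differentiation genes rose than fell. Of 30 cornified envelope genes 15 were higher and 4 lower in cpdm skin, and 13 and 8 in wild type skin. Hrnr, hornerin, a filaggrin-related protein of the stratum corneum, rose from 10.92, 11.14 and 11.05 to 12.44, 12.34 and 12.33 (log2 change 1.33, SE 0.15, adjusted p = 1.7e-06), and by 1.31 in wild type skin. Lce1a1, a late cornified envelope gene of a family with near-identical members, rose 3.87-fold. Alox12b, a lipoxygenase of barrier lipid synthesis, rose 3.06-fold. Of 19 genes of the lipid barrier list 9 were higher and 2 lower in cpdm skin, and 8 and 5 in wild type skin. Krt24, a keratin of differentiated cells, went from 4.48, 4.68 and 4.86 to 8.21, 7.59 and 7.63. Among basal adhesion genes 7 of 15 were higher and 2 lower in cpdm skin, and 7 and 3 in wild type skin. Cdh3, P-cadherin, which is abundant in the hair matrix, fell by 1.07 in cpdm skin.

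Macrophage genes were among the largest rises, in the mutant and in wild type skin. Of 21 macrophage markers 15 were higher and 1 lower in cpdm skin, with a median of 2.17 against 2.04 in wild type skin. The summed linear signal of the list was 3511 to 3835 per array at 2 weeks and 8574 to 10270 at 4 weeks. Mrc1, the mannose receptor CD206, rose from 6.53, 7.24 and 6.64 to 9.78, 9.92 and 10.24 (9.04-fold, log2 change 3.18, SE 0.44, adjusted p = 1.7e-05). Cd163, a haemoglobin scavenger receptor, rose from 5.94, 6.65 and 5.98 to 8.76, 8.33 and 8.69. The second 2-week array was the highest of its group for both genes, and the ages did not overlap. Wild type skin at 4 weeks had 8.72, 9.76 and 10.08 for Mrc1, with the first array lowest. The 1 lower marker was Gpnmb, named here after its values were seen, which fell by 3.08. Melanocytes also express Gpnmb.

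Ms4a4a and Retnla, genes of tissue macrophages, rose 11-fold and 8.90-fold. Mgl2, from the dendritic and Langerhans cell list, rose 9.54-fold. The wild type changes of Ms4a4a, Mgl2 and Retnla were 3.62, 2.62 and 2.84 on the log2 scale. Of 18 dendritic and Langerhans cell genes 14 rose and 0 fell, against 8 and 2 in wild type skin. Itgax, the integrin CD11c, rose from 5.89, 6.28 and 5.62 to 7.12, 7.43 and 7.88, and by 0.43 without a call in wild type skin (difference 1.11, adjusted p = 0.20). Of 16 antigen presentation genes 15 rose in cpdm skin and 14 in wild type skin, with medians of 1.07 and 1.17. Cd74, the class II invariant chain, rose in cpdm skin from 8.60, 9.30 and 8.55 to 10.83, 10.94 and 11. Of 25 interferon response genes 17 rose, with 19 in wild type skin. Ifi27l2a, one of them, was at 5.42, 5.83 and 5.52 and then at 7.35, 9.16 and 7.62, with the second 4-week array far the highest. Ifi205, an interferon-inducible gene of a family with similar sequences, rose 13.2-fold and by 4.93 on the log2 scale in wild type skin.

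**Figure D3:**
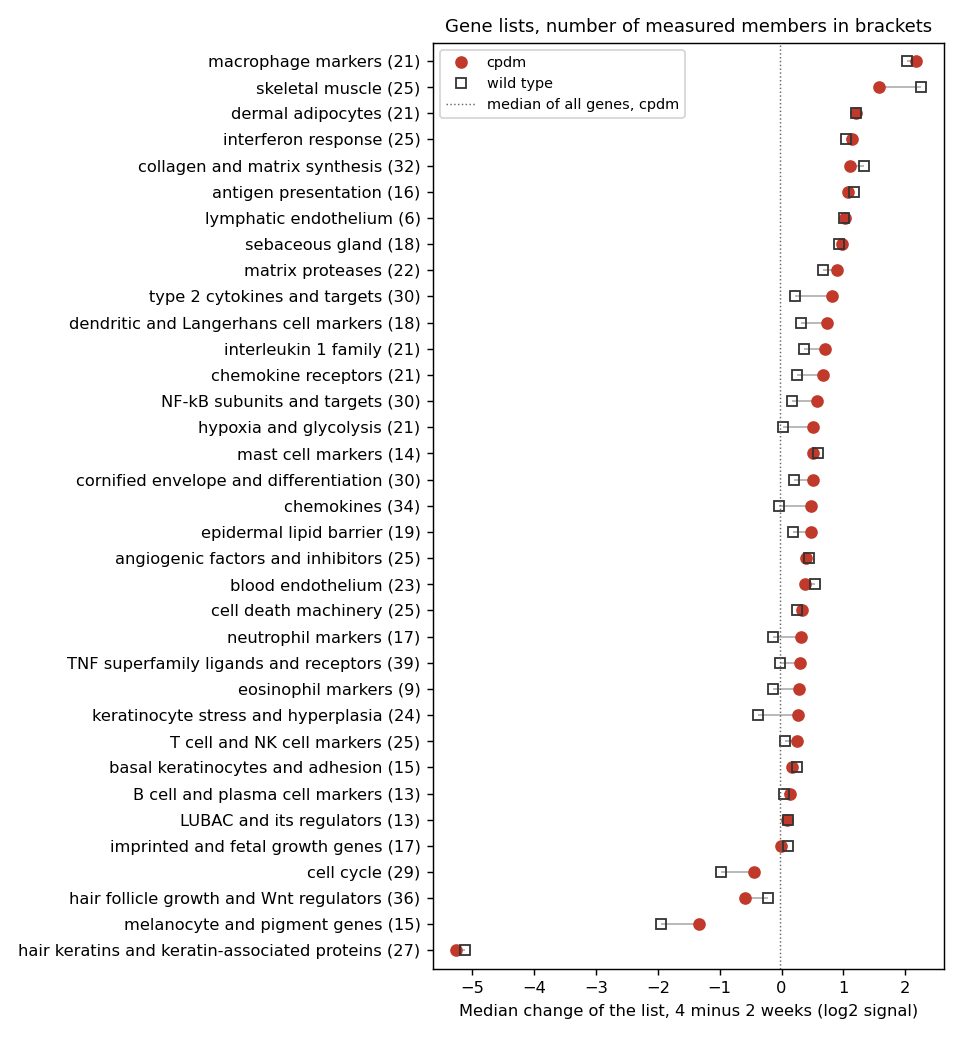
Median change from 2 to 4 weeks of each gene list in cpdm (filled) and wild type (open) skin on the log2 scale, with the number of measured members and the median of all genes in cpdm skin as a dotted line. Hair keratins lie lowest at -5.26 and macrophage markers highest at 2.17 in cpdm skin, and the keratinocyte stress list has medians of 0.26 and -0.38.

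The keratinocyte stress list had medians of opposite sign in the genotypes. In cpdm skin 9 of its 24 genes were higher and 2 lower, while in wild type skin 1 was higher and 12 lower. They were 0.26 in cpdm and -0.38 in wild type skin. Gsdmc, a member of the gasdermin family of pore-forming proteins that is expressed in skin, was at 6.19, 6.05 and 5.66 at 2 weeks and at 9.38, 9.79 and 9.94 at 4 weeks in the mutant. That was a 13.3-fold rise without overlap (log2 change 3.74, SE 0.28, adjusted p = 4.8e-09). Wild type skin had 4.98, 5.01 and 4.76 and then 5.63, 5.35 and 5.47. The change differed by 3.17 (SE 0.39, adjusted p = 0.00042), the largest of all called differences. Gsdmc2, a near-identical relative whose probes may share signal with Gsdmc, rose 7.67-fold, with a difference of 2.77 (adjusted p = 0.0022).

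Krt6b, a keratin of wounded and thickened epidermis, rose from 7.02, 7.17 and 6.67 to 10.92, 9.85 and 10.32 in cpdm skin and by 1.73 in wild type skin. The difference of 1.68 was not called in the fit over all arrays (limma adjusted p = 0.28) and was called over 12 (0.013). Stfa3, a stefin A protease inhibitor of a family with near-identical members, rose 6.51-fold in cpdm skin. Its mutant values at 2 weeks, 7.97, 7.92 and 7.14, already lay above the wild type values of 4.91, 4.87 and 5.35. Sprr2e, a small proline-rich envelope protein, rose from 4.16, 3.99 and 4.07 to 5.47, 4.77 and 5.59 and fell in wild type skin by 0.66. The difference was 1.86 (SE 0.29, adjusted p = 0.0022). A called difference was found for 3 of the 24 genes in the fit over all arrays and for 17 in the fit to 12 arrays.

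The kallikreins Klk6 and Klk13, from a family of proteases that shed the outer epidermis, changed in opposite directions in the 2 genotypes. Klk6 went from 8.48, 8.73 and 8.75 to 9.63, 9.55 and 9.66 in the mutant and from 8.50, 8.39 and 8.36 to 7.74, 7.39 and 7.30 in wild type skin. Both changes were called, 0.96 and -0.94 on the log2 scale, and they differed by 1.90 (SE 0.33, adjusted p = 0.0057). The 2-week groups of Klk6 overlapped between genotypes, and the 4-week groups did not. Klk13 had changes of 0.62 and -1.2 and a difference of 1.82 (adjusted p = 0.0064). Its rise within the mutant lost its call without 4 of the 6 arrays in turn, with changes of 0.51 to 0.59 and adjusted p-values up to 0.14. Those were the second and the third 2-week array and the first and the third 4-week array. Igfl3, an insulin growth factor-like secreted protein, rose 4.62-fold from 4.10, 4.40 and 4.48 to 6.73, 6.35 and 6.52, with 0.18 in wild type skin (difference 2.03, adjusted p = 0.0022).

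LUBAC genes and their regulators had small changes. Of 13 genes 5 were higher and 3 lower in cpdm skin (background 16.8% and 16.5%), with changes between -0.40 and 0.73. In wild type skin 5 were higher and 2 lower. Rnf31, the catalytic subunit, went from 7.60, 7.74 and 7.75 to 7.84, 8.06 and 7.98, a change of 0.26 (adjusted p = 0.033). That call was lost without the first 2-week array (change 0.22) or the second (0.21) or the third (0.25) 4-week array, with adjusted p-values of 0.14, 0.14 and 0.082. Tnfaip3, the NF-kB-induced inhibitor A20, was at 7.53, 7.64 and 7.62 and then at 7.66, 8.19 and 9.12. Its change of 0.73 (adjusted p = 0.020) was 0.33 without the third 4-week array (adjusted p = 0.24) and 0.69 without the first 2-week array (adjusted p = 0.061). Tnip1, a partner of A20, rose by 0.57 with no overlap. Map3k7, the kinase TAK1 downstream of these receptors, fell by 0.40, and by 0.53 in wild type skin.

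Of 30 NF-kB subunits and targets 18 rose and 0 fell in cpdm skin (background 16.8% and 16.5%). In wild type skin 8 rose and 1 fell (background 21.3% and 24.5%). The median was 0.57 in cpdm and 0.16 in wild type skin, and the difference was called for 0 of the 30 in the fit over all arrays. Nfkbie, an NF-kB inhibitor that NF-kB itself induces, rose from 5.89, 6.05 and 5.80 to 7.0, 7.29 and 7.48 (2.54-fold, adjusted p = 4.4e-05). Its wild type change was 0.35 and the difference of 0.99 had a limma adjusted p of 0.16 over 31 arrays and 0.0059 over 12. Relb, a subunit of non-canonical NF-kB, rose 1.77-fold. Birc3, the ubiquitin ligase cIAP2, rose from 6.69, 7.26 and 6.99 to 7.85, 8.06 and 8.31, and by 0.85 in wild type skin.

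The kappaB motif, the binding sequence of NF-kB dimers, was searched on both strands of the same windows. It was present for 13 of 26 genes of this list with a window (50%), against 5.05% of measured genes. The list was chosen for NF-kB targets, so its share could come from that choice. Of the 37 genes with a more positive change in cpdm skin, 30 had a window and 1 of them held the motif (3.33%). The window of Nfkb2 (chr19:46304487-46304736, plus strand), 1 of 3 for this gene, which encodes the p100 precursor, and that of Nfkbie (chr17:45555450-45555699, plus strand) are shown as members with matches, in capitals, 2 of which overlap in Nfkb2. Nfkb2 went from 7.99, 8.10 and 7.89 to 8.55, 8.95 and 9.10. It was named for its promoter after its values were seen.
Nfkb2: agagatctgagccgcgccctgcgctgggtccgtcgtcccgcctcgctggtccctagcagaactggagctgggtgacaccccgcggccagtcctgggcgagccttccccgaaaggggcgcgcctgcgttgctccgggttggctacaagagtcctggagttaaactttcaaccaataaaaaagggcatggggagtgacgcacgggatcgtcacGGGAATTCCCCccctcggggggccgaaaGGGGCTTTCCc
Nfkbie: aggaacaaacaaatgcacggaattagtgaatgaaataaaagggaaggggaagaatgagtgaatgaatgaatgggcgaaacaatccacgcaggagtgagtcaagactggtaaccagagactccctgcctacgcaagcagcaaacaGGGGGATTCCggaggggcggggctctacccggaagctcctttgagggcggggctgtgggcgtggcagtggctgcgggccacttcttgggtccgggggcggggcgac

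Of 39 TNF superfamily ligands and receptors 17 were higher and 2 lower in cpdm skin (background 16.8% and 16.5%). In wild type skin 8 were higher and 6 lower (background 21.3% and 24.5%). Tnf was at 5.72, 5.69 and 5.81 and then 5.73, 6.22 and 5.99, overlapping (adjusted p = 0.32). Tnfrsf1a, its main receptor, rose from 9.28, 9.30 and 9.38 to 9.80, 9.71 and 10.00, and Tnfrsf1b, its second receptor, rose 2.62-fold. Tnfrsf4, the T cell receptor OX40, rose from 6.37, 6.34 and 6.42 to 7.33, 7.25 and 7.27 (adjusted p = 1.1e-05), with a wild type change of 0.15. The difference for Tnfrsf4 was 0.75 with a limma adjusted p of 0.055 over 31 arrays and 0.019 over 12. Tnfrsf11b, osteoprotegerin, a decoy receptor, rose 2.30-fold (difference 0.86, limma adjusted p = 0.084 over 31 arrays and 0.0087 over 12).

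Most genes of the interleukin 1 family rose. Of 21 ligands, receptors and signalling genes 16 were higher and 1 lower in cpdm skin (background 16.8% and 16.5%). In wild type skin 11 were higher and 2 lower (background 21.3% and 24.5%). A difference was called for 0 in the fit over all arrays. Il33, an alarm cytokine of barrier cells, rose from 4.80, 5.53 and 5.29 to 7.31, 7.62 and 7.78, and by 2.24 in wild type skin. Il1f6, which encodes interleukin 36 alpha, went from 5.52, 5.73 and 5.62 to 6.88, 6.66 and 7.07 (2.37-fold, adjusted p = 7.0e-06). The wild type change of Il1f6 was 0.31, and the difference of 0.94 had a limma adjusted p of 0.068 over 31 arrays and 0.022 over 12. Il1f8, interleukin 36 beta, rose 3.90-fold. Il1b was at 4.43, 4.92 and 4.71 and then at 5.47, 5.65 and 7.39, so that its rise leaned on the third 4-week array. Its change was 1.48 (adjusted p = 0.0073), and 0.87 without that array (adjusted p = 0.092). Il1f10, interleukin 38, was the 1 member that fell, by 1.60.

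Of 34 chemokines 17 rose and 1 fell in cpdm skin (background 16.8% and 16.5%). In wild type skin 9 rose and 4 fell (background 21.3% and 24.5%). Ccl17, a ligand of CCR4 on type 2 T cells, went from 5.85, 6.43 and 5.68 to 8.01, 8.40 and 8.32 in the mutant, a 4.78-fold rise. It was at 5.65, 5.10 and 5.80 and then 5.22, 5.46 and 5.22 in wild type skin, overlapping. The difference of 2.47 (SE 0.37, adjusted p = 0.0022) was the only one called on the chemokine list in the fit over all arrays. Ccl22, the other CCR4 ligand, rose 2.33-fold from 5.34, 5.95 and 5.53 to 6.80, 6.54 and 7.15 (difference 1.17, adjusted p = 0.16). The eosinophil attractants Ccl11 and Ccl24 rose 5.11-fold and 2.73-fold, with wild type changes of 1.37 and 0.76. The monocyte attractant Ccl2 went from 5.22, 5.16 and 5.4 to 6.06, 6.77 and 6.78, with -0.07 in wild type skin (difference 1.35, adjusted p = 0.18). Ccl8, an attractant of several leukocytes, rose 13.0-fold from 5.67, 6.76 and 5.69 to 9.45, 9.99 and 9.78, and by 2.70 in wild type skin. In the limma fit to the 12 arrays of 2 and 4 weeks the differences of Ccl22, Ccl11 and Ccl2 were also called. Their adjusted p-values there were 0.013, 0.028 and 0.0076. Of 30 genes of the type 2 list 17 rose, against 10 in wild type skin.

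Granulocyte and lymphocyte lists are read against the 16.8% of all genes that were higher in cpdm skin and the 21.3% in wild type skin. Of 9 eosinophil markers 2 were higher and 0 lower, a share near that background, and 0 and 0 in wild type skin. The 2 were Alox15 and the eosinophil ribonuclease gene Ear6, which has near-identical relatives. Of 17 neutrophil markers 6 were higher and 0 lower, and 4 and 3 in wild type skin. Alox15, a lipoxygenase of eosinophils and some macrophages, rose 4.10-fold from 6.30, 7.11 and 6.43 to 8.32, 8.57 and 9.06. Its difference of 1.46 had a limma adjusted p of 0.084 over 31 arrays and 0.032 over 12. Of 14 mast cell markers 9 were higher and 1 lower, and 8 and 1 in wild type skin. Mcpt4, a chymase of connective tissue mast cells, rose 4.66-fold. Of 25 T and NK cell markers 10 were higher and 0 lower, and 4 and 2 in wild type skin. Cd4 rose from 5.35, 5.13 and 5.0 to 6.09, 6.17 and 6.32, and Il2ra, the interleukin 2 receptor of activated and regulatory T cells, from 4.30, 4.34 and 4.37 to 5.17, 5.42 and 5.45. Of 13 B and plasma cell markers 1 was higher and 1 lower, below the background shares, and 2 and 1 in wild type skin.

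Of 25 cell death genes 12 rose and 2 fell in cpdm skin, against 16.8% and 16.5% of all genes. In wild type skin 12 rose and 3 fell, against 21.3% and 24.5%. Ripk3, the kinase of necroptosis, went from 6.22, 6.28 and 6.26 to 7.24, 7.28 and 7.41 in the mutant (2.08-fold, adjusted p = 0.00052). Its wild type values were 6.39, 6.40 and 6.37 and then 6.19, 6.77 and 6.97, and the difference of 0.80 had an adjusted p of 0.26. Casp4, the inflammatory caspase-11, rose 3.28-fold and by 1.14 in wild type skin. Gsdmd, the gasdermin that it cleaves, rose 2.21-fold, with 1.08 in wild type skin.

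Matrix proteases rose for 15 of 22 genes in cpdm skin and for 12 in wild type skin, with 0 lower in each. Mmp12, the macrophage elastase, was at 6.11, 7.05 and 6.19 at 2 weeks and at 8.98, 9.16 and 9.45 at 4 weeks in cpdm skin, a 6.71-fold rise. Wild type skin had 5.90, 5.90 and 5.94 and then 6.28, 5.75 and 5.59, with a change of -0.04. The difference of 2.79 (SE 0.42, adjusted p = 0.0022) was called, unlike that of every other gene on the macrophage list in the fit over all arrays. In the limma fit to 12 arrays those of Mertk (-0.90, adjusted p = 0.0041) and Lyz1 (-1.65, adjusted p = 0.042) were called too. Ctsk, cathepsin K of fibroblasts and macrophages, rose in both genotypes, by 2.40 and 2.36. Pyy, the peptide hormone peptide YY, rose from 7.26, 7.4 and 7.43 to 9.35, 10.05 and 10.23, or 5.71-fold. Pyy was at 6.46, 6.27 and 5.97 and then 6.45, 6.01 and 6.17 in wild type skin, a difference of 2.54 (adjusted p = 0.0076).

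Genes of oxygen sensing and glycolysis rose for 14 of 21 members and fell for 0 in cpdm skin (background 16.8% and 16.5%). In wild type skin 7 rose and 3 fell (background 21.3% and 24.5%). A called difference was found for 3 in the fit over all arrays, Egln3, Slc2a1 and Pgam1. Egln3, an oxygen-sensing prolyl hydroxylase that hypoxia-inducible factor itself induces, went from 8.70, 8.95 and 8.89 to 9.88, 10.21 and 10.20 in the mutant. In wild type skin it went from 8.40, 8.19 and 8.28 to 7.94, 7.32 and 7.21, so both changes were called in opposite directions, 1.25 and -0.80. They differed by 2.05 (SE 0.31, adjusted p = 0.0022). Slc2a1, the glucose transporter GLUT1, rose from 9.49, 9.56 and 9.57 to 10.61, 10.49 and 10.57, with a wild type change of 0.02 and a difference of 1.0 (adjusted p = 0.021). Leaving out each of the 12 arrays in turn lost the Slc2a1 call 7 times, with adjusted p-values up to 0.068. Those were the first and the third array of each cpdm age, the second and the third wild type array of 2 weeks and the third of 4 weeks, and the differences over all 12 were 0.90 to 1.06. Pgam1, a glycolytic mutase, changed by 0.25 in cpdm skin without a call and by -0.65 in wild type skin, a difference of 0.90 (adjusted p = 0.0043). Fam162a, a mitochondrial protein induced by hypoxia that was on no list, rose by 0.85 and differed by 1.04 (adjusted p = 0.0046). Pgam1 and Fam162a were named after their values were seen.

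The letters ACGTG, part of the motif that hypoxia-inducible factors bind, were found on either strand in the windows of 16 of 20 genes of this list (80%) and of 20.9% of measured genes. ACGTG also lies within the E-box CACGTG, which 4 of the 20 windows held (20%, against 8.11% of measured genes). The list was chosen for genes of oxygen sensing and glycolysis, so its share could come from that choice. Of the 30 more positively changed genes with a window 10 held ACGTG (33.3%). The windows of the 3 list members with a called difference and of Fam162a, which is on no list, are shown, with matches in capitals, on the reverse strand for Fam162a: Egln3 (chr12:54203875-54204124, minus strand), Slc2a1 (chr4:119108495-119108744, plus strand), Pgam1 (chr19:41911621-41911870, plus strand) and Fam162a (chr16:36071562-36071811, minus strand).
Egln3: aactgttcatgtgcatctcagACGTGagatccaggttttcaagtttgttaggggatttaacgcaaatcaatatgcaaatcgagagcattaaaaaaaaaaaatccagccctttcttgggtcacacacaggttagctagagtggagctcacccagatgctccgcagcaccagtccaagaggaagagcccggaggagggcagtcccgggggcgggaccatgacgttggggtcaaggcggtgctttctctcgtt
Slc2a1: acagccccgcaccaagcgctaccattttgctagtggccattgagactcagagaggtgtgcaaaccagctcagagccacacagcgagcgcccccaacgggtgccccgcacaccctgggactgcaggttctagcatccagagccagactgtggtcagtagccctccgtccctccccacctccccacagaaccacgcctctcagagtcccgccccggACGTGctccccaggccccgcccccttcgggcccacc
Pgam1: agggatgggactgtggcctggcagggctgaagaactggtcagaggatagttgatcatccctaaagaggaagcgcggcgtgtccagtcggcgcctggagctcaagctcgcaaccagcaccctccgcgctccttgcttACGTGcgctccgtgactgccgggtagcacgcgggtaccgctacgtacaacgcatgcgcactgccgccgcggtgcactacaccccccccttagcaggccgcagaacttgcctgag
Fam162a: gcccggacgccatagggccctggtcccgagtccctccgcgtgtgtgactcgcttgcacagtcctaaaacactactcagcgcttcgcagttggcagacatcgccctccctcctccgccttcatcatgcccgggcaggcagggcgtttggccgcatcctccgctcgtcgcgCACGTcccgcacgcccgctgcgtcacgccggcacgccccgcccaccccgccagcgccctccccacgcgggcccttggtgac

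**Figure D4:**
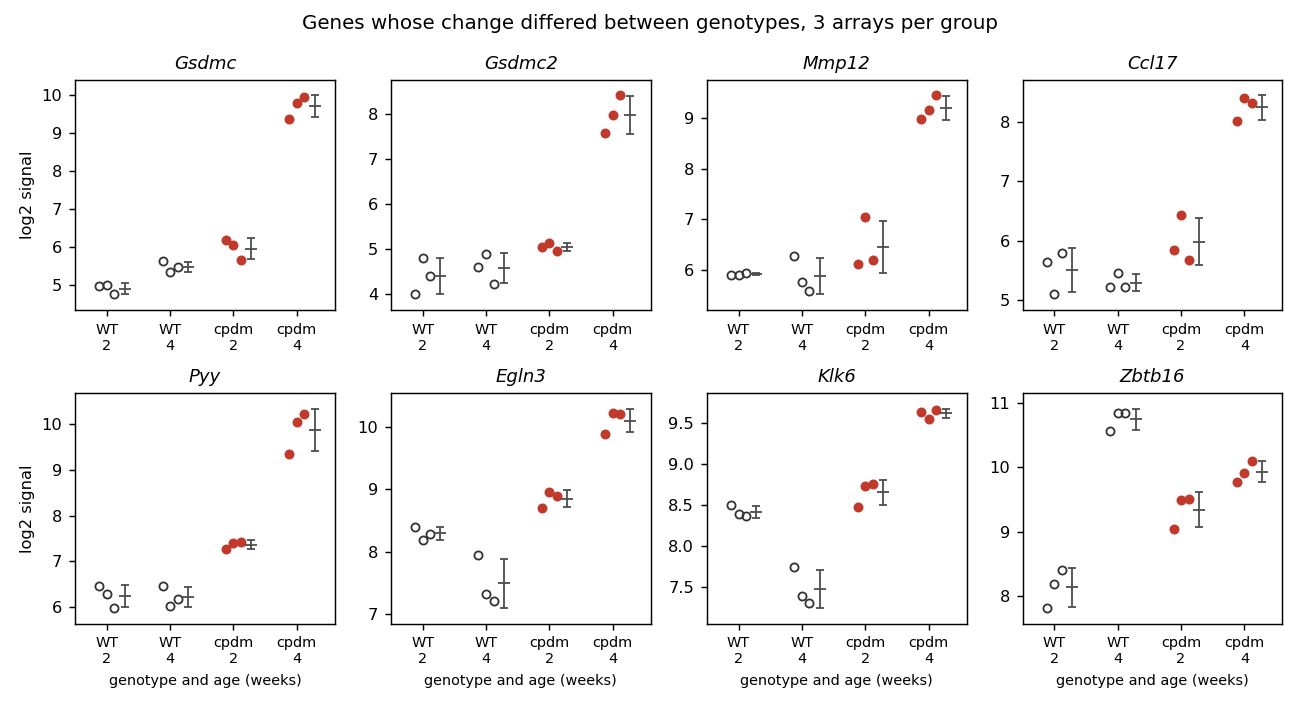
Log2 signal of 8 genes with a called difference of change, in wild type (open) and cpdm (filled) skin at 2 and 4 weeks, with 3 arrays per group and bars for the mean and SD. The rises of Gsdmc, Gsdmc2, Mmp12, Ccl17 and Pyy passed the test in cpdm and not in wild type skin, Egln3 and Klk6 changed in opposite directions, and the rise of Zbtb16 passed it in wild type skin.

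The 9 genes with a more negative change in the mutant (0.0451% of the genes tested) were led by Zbtb16, a transcription factor that glucocorticoids induce. It was at 9.04, 9.49 and 9.51 and then at 9.78, 9.92 and 10.10 in cpdm skin, not called, and rose from 7.82, 8.19 and 8.41 to 10.56, 10.84 and 10.84 in wild type skin. The difference was -2.02 (SE 0.37, adjusted p = 0.0080), and the mutant was above wild type skin at 2 weeks and below it at 4 weeks, both without overlap. Scgb1a1, a secretoglobin known from airway epithelium, fell in cpdm skin from 5.57, 5.74 and 5.45 to 4.28, 4.26 and 4.29, with a wild type change of 0.23 and a difference of -1.54 (adjusted p = 0.010). Ppp1r3c, a glycogen-targeting subunit of protein phosphatase 1, rose by 2.11 in wild type and by 0.31 without a call in cpdm skin, a difference of -1.80 (adjusted p = 0.023). Arhgap20 and Lysmd1 had differences of -1.15 and -0.89. The calls of Ppp1r3c, Zfp317, Kansl1l, Zfp512 and Csad were lost on leaving out 1 of 7, 5, 7, 11 and 4 of the 12 arrays, with adjusted p-values up to 0.081, 0.092, 0.098, 0.13 and 0.072. Zbtb16, Scgb1a1, Arhgap20 and Lysmd1 stayed called without each of the 12 arrays.

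At 2 weeks every cpdm array already lay above every wild type array for Gsdmc, Gsdmc2, Mmp12, Pyy and Egln3. For Klk6 and Ccl17 the genotypes overlapped at 2 weeks. At 6, 8 and 10 weeks every cpdm array lay above every wild type array of its age for Gsdmc, Klk6 and Ccl17. Gsdmc had means of 5.97 and 9.70 in cpdm skin at 2 and 4 weeks and of 10.85, 10.88 and 10.76 at 6, 8 and 10 weeks, and the wild type means lay between 4.92 and 5.61. The mean of Klk6 was 9.61 at 4 weeks and 11.22, 11.31 and 11.42 at the later ages, while that of Ccl17 was 8.24 at 4 weeks and 8.39, 8.03 and 8.14 afterwards. For Pyy the cpdm means were 10.18, 7.90 and 7.89 at 6, 8 and 10 weeks. At 10 weeks the cpdm arrays of Pyy, 7.57 to 8.50, overlapped the wild type arrays, 6.83 to 7.97. Krt26 did not stay low: its cpdm means were 5.73, 6.93 and 9.38 and its wild type means 9.96, 7.12 and 4.55 at 6, 8 and 10 weeks. The spread of Krt26 within a group was wide at 6 and 8 weeks.

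**Figure D5:**
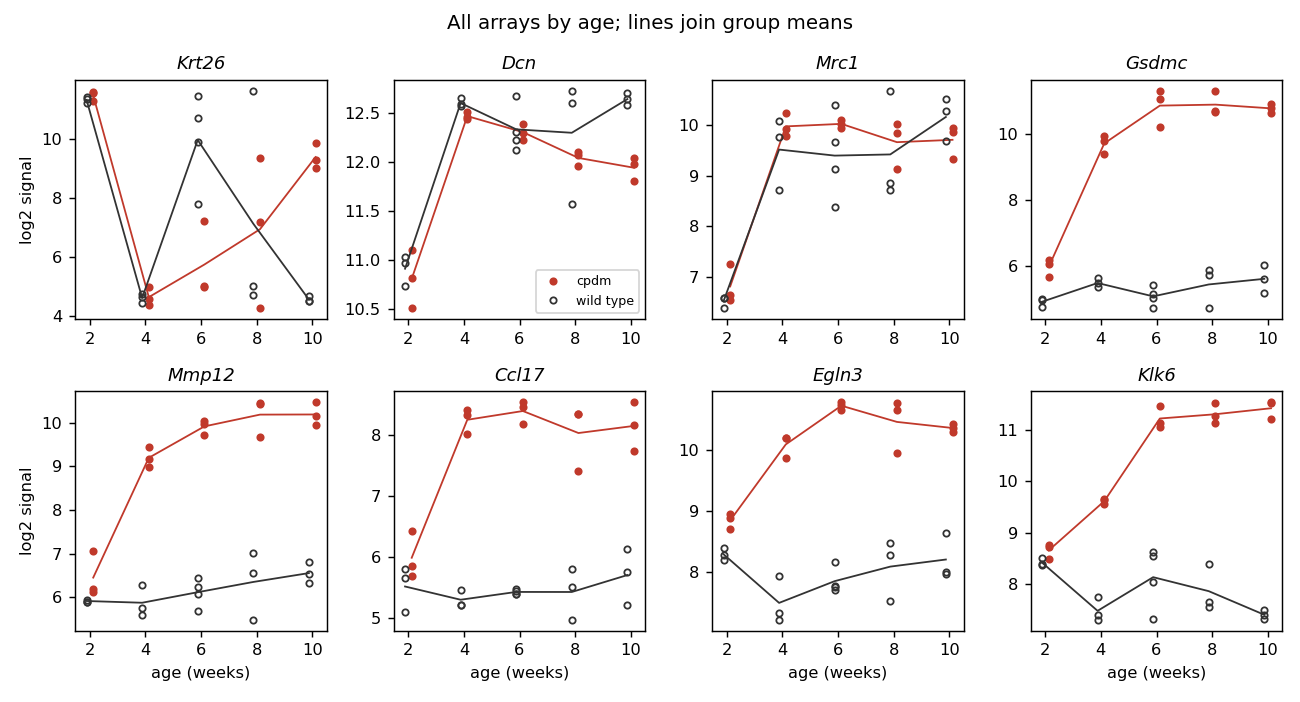
Log2 signal of 8 genes in all 31 arrays by age in weeks, cpdm (filled) and wild type (open), with lines through the group means. Gsdmc, Mmp12 and Egln3 lie above wild type skin at every age, and Ccl17 and Klk6, which overlap at 2 weeks, from 4 weeks on. Dcn and Mrc1 rose in both genotypes by 4 weeks, and Krt26 varied between arrays of a group after 4 weeks.

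The number of called differences depended on which arrays set the spread. In the fit to the 12 arrays of 2 and 4 weeks, 250 genes were more positive and 273 more negative, and these held 36 of the 37 and all 9 genes named by the fit over 31 arrays. With array weights the counts were 340 and 271. Of 616 genes higher in cpdm skin and not called in wild type skin, 20 had a called difference, and of 709 lower ones 1 had. A call in the mutant without one in wild type skin was therefore rarely shown to differ between them in the fit over all arrays.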

How the data were processed

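Whole mouse skin was hybridised to whole-transcript arrays, one per sample. The log2 signals were deposited by the authors as RMA values from Affymetrix Expression Console 1.2, per the submitters' processing notes. The sources used here do not state scan dates or whether all arrays were normalized together. RMA leaves no read depth, so the number of arrays limits the precision. Of 35556 probe sets, 21789 carried 1 gene symbol in the platform annotation, 1621 several and 12146 none, and 21698 matched a RefSeq gene. The probe set with the highest mean over 31 arrays stood for each of 19938 genes, 999 of which had several.

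limma 3.58.1 (R 4.3.3) fitted a mean for each of 10 groups of genotype and age (21 residual degrees of freedom). The contrasts were 4 minus 2 weeks in each genotype and their difference, with Benjamini-Hochberg adjustment over all genes and calls below 0.05. The fits were tested on simulated data with 200 changed genes: at log2 changes of 0.5, 1 and 2, 50%, 90% and 100% were recovered for the cpdm change and 26%, 82% and 98% for the difference. The share of false calls was 6.18% and 6.58%. Each simulated gene had the same mean and spread in every group, apart from the change added to cpdm skin at 4 weeks. The shares therefore do not cover genes whose spread differs between ages, such as Krt26.

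The members and gene lists were chosen with earlier results of these data known. Genes were named by rule: the 15 largest rises and falls, up to 4 per list, and the 10 strongest differences in each direction. Exceptions are stated. Replicate numbers did not pair the samples (correlations of deviations -0.064 to 0.056). Other fits, scalings, filters and left-out arrays were tried.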

Additional observations from a re-analysis of the deposited data

Results flagged for a closer look

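Each difference here is the log2 change from 2 to 4 weeks in cpdm skin minus that in wild type skin, tested as an interaction in limma over 31 arrays, and each was called. Of the 37 genes more positive in the mutant, those described above were Gsdmc (3.17), Mmp12 (2.79), Gsdmc2 (2.77), Pyy (2.54), Ccl17 (2.47), Egln3 (2.05), Igfl3 (2.03), Klk6 (1.90), Sprr2e (1.86), Klk13 (1.82), Cxcr2 (1.62), Fam162a (1.04), Slc2a1 (1.0) and Pgam1 (0.90). Genes not described above, such as Bcl2l15 (1.69), Adgrg7 (1.59) and Rbp2 (1.48), had larger called differences than Fam162a, Slc2a1 and Pgam1. More negative were Zbtb16 (-2.02), Ppp1r3c (-1.80), Scgb1a1 (-1.54), Arhgap20 (-1.15), Zfp317 (-0.90), Lysmd1 (-0.89), Kansl1l (-0.71), Zfp512 (-0.57) and Csad (-0.57). No cause was tested.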

How the results depend on the processing

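The cpdm counts of 3340 higher and 3285 lower genes were 1071 and 456 at a change of at least 2-fold, and the lower count was 2142 at an adjusted p below 0.01. The 9138 wild type calls were 2003 at 2-fold. The 37 more positive differences were 250 over the 12 arrays, 340 with array weights and 23 at an adjusted p below 0.01. The 9 more negative differences were 273 over the 12 arrays, 271 with array weights, 19 with quantile normalization repeated, 15 each without the dimmest 40% of genes, with a trended robust spread and with arrays centred, 3 at the stricter p and 4 at 2-fold. Why they moved was not tested. Leaving out 1 array in turn gave 2772 to 3064 higher and 2484 to 3155 lower genes in cpdm skin, 7825 to 8373 wild type calls, and 26 to 37 more positive differences. It gave 5 to 14 more negative differences: 5 without the third 2-week or the second 4-week cpdm array or the first 2-week wild type array, and 14 without the first 4-week cpdm array. With the replicate number as a block (replicate block) the counts were 3346, 3230, 9085, 43 and 9, and the samples share only a number. For the list median, imprinted and fetal growth genes, the value of -0.01 was 0.0017 with array weights, 0.018 and 0.075 without the second 2-week or the first 4-week cpdm array, and -0.085 to 0.075 over the left-out arrays. Rbck1, with a change of 0.06, was at -0.02 with arrays centred. Among the genes whose difference between genotypes was taken through every alternative, none changed sign, 9 lost and 11 gained a call under some alternative.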

Other observations

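Vessel genes rose in both genotypes. Of 23 blood endothelium genes 11 rose and 0 fell in cpdm skin, and 18 rose in wild type skin, against 16.8% and 21.3% of all genes higher. Pecam1, the endothelial adhesion molecule CD31, was at 7.78, 7.88 and 7.76 at 2 weeks and at 8.33, 8.26 and 8.38 at 4 weeks in the mutant. Of 6 lymphatic endothelium genes 5 rose in each genotype, with medians of 1.02 and 1.01.

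Fkbp5 and Tsc22d3, which glucocorticoids induce as they do Zbtb16, were looked up after Zbtb16 was seen. Fkbp5 rose by 1.44 in cpdm and by 2.81 in wild type skin, a difference of -1.37 that was not called (limma adjusted p = 0.14 over 31 arrays and 0.0013 over 12). Its means were 8.23 in cpdm and 7.16 in wild type skin at 2 weeks, and 9.67 and 9.98 at 4 weeks. Tsc22d3 rose by 1.29 and 2.72, a difference of -1.43 (adjusted p = 0.12 and 0.0022). Its means were 7.16 in cpdm and 6.57 in wild type skin at 2 weeks, and 8.45 and 9.29 at 4 weeks.

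Of the 13767 probe sets that carried no gene symbol or several, 445 were higher and 813 lower in cpdm skin at 4 weeks. Among the 19938 genes, fitted separately, the shares were 16.8% higher and 16.5% lower.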
